A study of Mus musculus with 36 samples.

Results

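The 36 spleens of this series fell into 2 classes by the level of Mndal, with 26 arrays in a high class and 10 in a low class. Each array measured RNA from a mouse spleen at 4 months of age, and the 36 arrays were taken as 36 mice. The design text gives a total of F2 mice smaller than the sum of its own 2 groups, and this conflict was not resolved, so every n and p-value below rests on separate mice. The mice were F2 animals, 18 labelled arthritic and 18 labelled non-arthritic, and the series title gives the arthritic animals as lacking the antagonist of the interleukin 1 receptor. The labels give no genotype, parental strain, sex, arthritis score or date for any mouse, so every class below is one of signal and not of genotype. The members of each class were chosen by the measured log2 level of the _x_at probe set of Mndal, which names Mndal alone: an array at or above a limit inside the widest gap between the arrays was called high and any other low. Levels are log2(intensity + 16) of the deposited intensities throughout, and a difference is the high mean minus the low mean with the arthritis label as a term.

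Mndal encodes a nuclear protein of the PYHIN (Ifi200, or HIN-200) family, whose members carry a DNA-binding HIN domain and, in many cases, a pyrin domain. The genes of the family lie side by side on distal chromosome 1 of the mouse, many of them are induced by interferon, and they are known to differ in number and in expression between inbred strains. The member Aim2 senses DNA in the cytosol and starts an inflammasome, the complex that activates interleukin 1. In an F2 cross, genes that lie close together on a chromosome tend to be inherited together, so neighbours of Mndal on chromosome 1 are described apart from the rest of the genome.

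Start-site windows of Mndal and of its neighbour Ifi203 are shown because Mndal defines the classes and Ifi203 is the only other family member with a probe set of its own that passed the test between them. Both windows come from RefSeq (GRCm38.p6), run 5′ to 3′ on the gene's strand, hold 300 bases around an annotated start, and have capitals at a motif made of 2 copies of GAAA set 2 bases apart, the core of the element bound by interferon-activated factors. Each of these genes has 2 annotated windows. The upstream Mndal window, the one of its 2 matching windows with the motif on the gene's strand, and the single matching Ifi203 window are shown, Mndal at chr1:173880138-173880437 and Ifi203 at chr1:173942443-173942742, both on the minus strand.
Mndal: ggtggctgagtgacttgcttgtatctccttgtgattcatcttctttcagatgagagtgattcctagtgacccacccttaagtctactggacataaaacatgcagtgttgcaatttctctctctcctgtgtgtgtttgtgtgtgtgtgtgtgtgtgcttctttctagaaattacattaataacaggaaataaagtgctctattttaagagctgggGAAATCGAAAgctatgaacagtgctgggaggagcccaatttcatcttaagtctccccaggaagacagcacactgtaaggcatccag
Ifi203: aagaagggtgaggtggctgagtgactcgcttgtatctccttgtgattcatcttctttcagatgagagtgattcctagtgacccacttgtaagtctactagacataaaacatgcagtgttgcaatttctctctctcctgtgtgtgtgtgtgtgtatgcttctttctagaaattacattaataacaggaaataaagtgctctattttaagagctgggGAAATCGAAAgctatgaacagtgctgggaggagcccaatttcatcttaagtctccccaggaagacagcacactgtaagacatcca

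The windows shared 282 of 289 aligned bases (97.6%), with 10 gap letters, and both held the motif as GAAATCGAAA. Searched on both strands, the motif was present in 1131 of 32851 RefSeq windows of this length (3.44%). Counted by gene, 1079 of 27025 had a window with it (3.99%), the share to set beside genes shown by a matching window. Windows this alike are not separate matches. None of the windows of Usf1, Tmem63a, Aldh9a1 or Parp1, whose probe sets are described below, held these letters. A match is a run of letters in a window and was not tested as a binding site.

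The level of Mndal on its _x_at probe set ran from 7.17 to 8.72 in the low class, with a median of 7.64, and from 11.89 to 13.43 in the high class, with a median of 12.64. As intensities these were 127.6 to 407.1 in the low class and 3777 to 11025 in the high class. The 2 classes left the widest gap in the ordered levels, 3.16 or 8.97-fold, between arthritic replicate 15 at 8.72 and non-arthritic replicate 6 at 11.89, while the next widest gap was 0.50. These values chose the classes and are a description with no test. The low class held arthritic replicates 6, 11, 15 and 18 and non-arthritic replicates 3, 7, 8, 13, 14 and 15. Its mean was 7.83 ± 0.63 (SD, n = 10), and that of the high class was 12.69 ± 0.35 (SD, n = 26).

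Another probe set of Mndal, 1426906_at, placed all 36 arrays in the same classes. It ran from 4.04 to 8.08 in the low class (median 5.03) and from 11.18 to 13.14 in the high class (median 12.19). Non-arthritic replicates 3 and 8 and arthritic replicate 15 gave the 3 highest low-class levels on both probe sets, as the plot of all arrays shows. Probe set 1452348_s_at is listed under Mndal and 3 related genes, and its classes overlapped, with means of 10.82 ± 0.40 (SD, n = 26) in high and 9.62 ± 0.45 (SD, n = 10) in low spleens. Within the high class, the _x_at probe set averaged 12.85 ± 0.30 over the 14 arthritic spleens (SD) and 12.49 ± 0.32 over the 12 non-arthritic spleens (SD). All 3 probe sets are left out of every count below. The ending _x_at marks a probe set with probes that match other transcripts too, so signal from related genes in these levels was not separated.

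**Figure D1:**
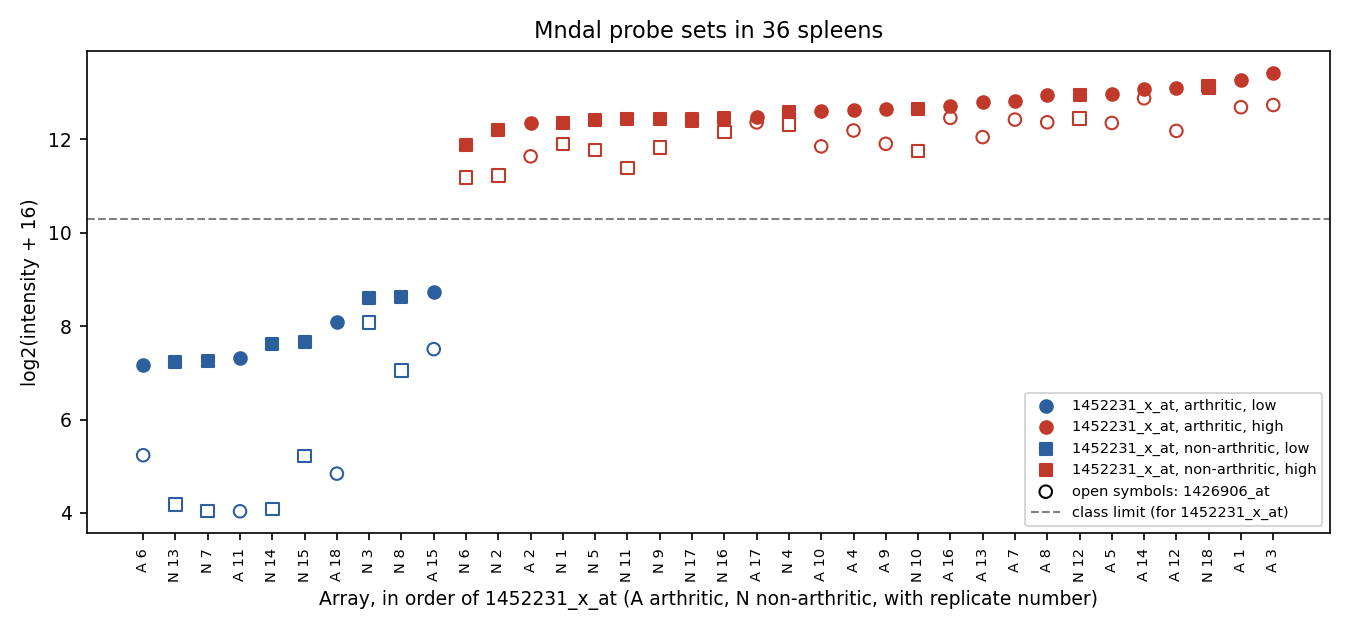
Log2(intensity + 16) of the Mndal probe sets, the class-setting _x_at one filled and 1426906_at open, on each of the 36 arrays, in order of the first (circles arthritic, squares non-arthritic, blue low, red high, dashed line the class limit). The 10 low arrays end at 8.72 on the first probe set and the 26 high arrays start at 11.89, with no array between.

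The first comparison asked whether the arthritis label went with the class. Low spleens were 4 of 18 in the arthritic group (22.2%) and 6 of 18 in the non-arthritic group (33.3%). Fisher's exact test (two-sided) of these shares did not pass (p = 0.711), and the odds ratio of 1.72 had a 95% interval of 0.318 to 10.4, which is wide at this number of mice.

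Signs of array and RNA quality were compared next. Mean median intensity was 137.8 in high and 131.9 in low spleens, the Gapdh 3 prime to 5 prime ratio was 0.883 and 0.922, and the actin ratio was 1.49 and 1.41. No difference in these 3 measures passed the test (two-sided permutation tests with 100000 resamples, p = 0.312, 0.450 and 0.528, each 0.528 after adjustment over the 3). Arrays were also grouped into 3 clusters, A, B and C, by the 18 control probe sets of bacterial transcripts that are added before hybridisation. Low spleens made up 1 of 13 arrays in cluster A, 8 of 16 in B and 1 of 7 in C. Under this definition of the clusters, the class moved with the cluster (exact test, two-sided, p = 0.0382). With clusters from uncentred control levels the same test gave p = 0.288. The called probe sets below are therefore also given with the cluster as a block and within cluster B, the only one with more than 1 low array, and list medians with the block are in the plot of the lists.

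Across the genome, the spleens with high Mndal had higher signal on a short list of probe sets, most of them near Mndal on chromosome 1. Of 27019 tested probe sets limma called 9 (0.0333%) at an adjusted p under 0.05, 9 higher and 0 lower in high spleens, and 2289 had an unadjusted p under 0.05. Of the 9, 6 lie within 20 Mb of Mndal and 3 have no gene in the annotation used. On all other chromosomes 0 of 21455 tested probe sets were called by limma, with 1680 at an unadjusted p under 0.05, and a Wilcoxon rank-sum test also called 0 there. These counts depend on leaving the replicate number out of the fit. With the replicate number as a block limma called 555 probe sets, 67 of them higher in high spleens, and 295 lay on other chromosomes. Classes did not overlap at all on 4 probe sets (0.0148%). Among these 4 and the 9, Parp1 1443573_at and 1419858_at had low-class means of 5.69 and 5.42. Both lay under the mean level of 6.49 needed for testing, so these probe sets entered the counts through the high class. The probe sets named below that have several genes or none were chosen after their values were seen. So were those of Parp1, Aldh9a1, Ccr2, Dnase1l3 and Med13l, which are not the brightest of their genes.

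The Ifi200 family members closest to Mndal are taken first. Probe set 1448775_at, listed under 3 genes of the Ifi203 group, ran from 5.90 to 7.50 in low spleens (median 6.50) and from 10.03 to 12.14 in high spleens (median 10.49). Every high spleen lay above every low one, and the difference was 4.07 (SE 0.18, limma adjusted p = 3.18e-19), a 16.7-fold change. It was 4.03 with the cluster as a block and 3.73 within cluster B. Whether its probes also bind Mndal transcripts was not tested. A brighter probe set, listed under 4 genes with these 3 among them, averaged 11.59 in high and 11.69 in low spleens. It differed by -0.12 (limma adjusted p = 0.796). Another, listed under the same 3 genes but too low in mean level to be tested, differed by 0.76. What sets 1448775_at apart was not tested, and no change of the Ifi203 group as a whole can be read from it. Ifi203, a PYHIN protein gene 0.06 Mb from Mndal, has 1 probe set of its own, 1442828_at, which ran from 5.08 to 7.29 in low spleens (median 6.90) and from 6.82 to 8.91 in high spleens (median 7.65). Here the classes overlapped, with 6 of 10 low spleens above the lowest high spleen, and the difference was 0.91 (SE 0.18, limma adjusted p = 0.0300). With the spike-in cluster as a block it was 0.76 and no longer passed (adjusted p = 0.186), and it was 0.67 within cluster B. Leaving out any 1 of 7 arrays also ended this call.

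The other tested single-gene members did not pass in the fit without a block. Ifi202b is a family member without a pyrin domain. Its own probe set ran from 10.34 to 11.51 in low spleens (median 10.94) and from 8.98 to 11.52 in high spleens (median 10.27). Signal on this probe set pointed the opposite way to that of Mndal. The difference was -0.75 (SE 0.21), with a limma adjusted p of 0.340. That p was 0.0674 with the cluster as a block and 0.0403 with the replicate number as a block. Another probe set, listed under 2 genes with Ifi202b among them, differed by only -0.28 (limma adjusted p = 0.672). The differences were -0.30 for Ifi209, -0.32 for Ifi213, -0.26 for Ifi204, -0.08 for Ifi207 and -0.02 for the DNA sensor Aim2, with adjusted p from 0.572 to 0.985, and the classes of all these genes overlapped. Dimmer probe sets of Ifi209 (limma adjusted p = 0.899) and Ifi213 (not tested) differed by 0.05 and 0.04. A probe set listed under Ifi211 and Ifi205 differed by 0.42 (limma adjusted p = 0.419), the same way as Mndal. No direction of the family as a whole can be read from these values. Of 16 genes on the Ifi200 list, 7 had a tested probe set of their own, beside Mndal, and 1 of 7 was called. The median difference of the 7 was -0.26, beside 0.01 over all 12426 tested genes, of which 3 were called.

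Among the neighbours outside the family, Usf1 lies 2.45 Mb towards the centromere and encodes a helix-loop-helix transcription factor that binds E-box sequences. Its probe set 1448805_at ran from 6.93 to 8.63 in low spleens (median 8.01) and from 7.85 to 9.46 in high spleens (median 8.98). Most high spleens lay above the low ones, but 5 of 26 did not clear the highest low spleen. Usf1 was higher by 0.90 (SE 0.15, limma adjusted p = 0.00197), by 0.92 with the cluster as a block and by 1.02 within cluster B. A second probe set of Usf1, 1426164_a_at, differed by 0.63 (adjusted p = 0.0753), and the other by -0.08.

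Tmem63a, which encodes an ion channel opened by osmotic and mechanical stress, lies 7.09 Mb on the telomeric side. It ran from 8.60 to 9.05 in low spleens (median 8.93) and from 9.23 to 9.998 in high spleens (median 9.56). All 26 high spleens were above all 10 low spleens. The difference was 0.69 (SE 0.08, limma adjusted p = 2.52e-06), a 1.61-fold change, and it was 0.73 with the cluster as a block and 0.70 within cluster B.

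Parp1, the polymerase that attaches ADP-ribose chains to proteins at DNA breaks, lies 6.72 Mb on the same side. On its probe set 1443573_at low spleens ran from 4.57 to 7.11 (median 5.82) and high spleens from 7.30 to 9.62 (median 8.19), again without overlap. That difference was 2.64 (SE 0.23, limma adjusted p = 3.31e-10), or 6.22-fold, and it was 2.95 with the cluster as a block and 3.30 within cluster B. The low-class mean of 5.69 lay under the mean level of 6.49 that a probe set needed over all arrays to be tested, so this probe set entered the test through the high class, and the fold is taken against a level below that limit. The 3 other probe sets of Parp1, all brighter, differed by 0.10, 0.02 and -0.13, with adjusted p from 0.629 to 0.922. What sets 1443573_at apart from them was not tested, and no change of the Parp1 transcript as a whole can be read from it.

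Aldh9a1, an aldehyde dehydrogenase that takes part in carnitine synthesis, lies 6.51 Mb towards the centromere. Its probe set 1437398_a_at ran from 9.19 to 9.89 in low spleens (median 9.62) and from 9.33 to 10.43 in high spleens (median 10.01). The classes overlapped, and 1 high spleen lay far below the others of its class. The difference was 0.41 (SE 0.08, limma adjusted p = 0.00870), also 0.41 with the cluster as a block and 0.38 within cluster B, while the brighter probe set 1436689_a_at differed by 0.17 (adjusted p = 0.643).

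The 3 called probe sets with no gene name were 1419858_at, 1457199_at and 1419716_a_at. The first ran from 4.30 to 6.15 in low spleens (median 5.46) and from 6.63 to 8.85 in high spleens (median 8.08), with no overlap and a difference of 2.58 (SE 0.19, limma adjusted p = 3.38e-12). That difference was 2.66 with the cluster as a block and 2.70 within cluster B. All its low spleens lay under 6.49, so it too entered the test through the high class. The second ran from 6.41 to 7.20 in low and from 6.78 to 8.16 in high spleens, with 3 high spleens inside the low range and a difference of 0.89 (SE 0.13, limma adjusted p = 8.64e-05), or 0.99 with the cluster as a block and 0.95 within cluster B. The last overlapped more: low spleens ran from 7.61 to 9.46 and high spleens from 8.72 to 9.59. Its difference was 0.70 (SE 0.13, limma adjusted p = 0.00870), and 0.63 with the cluster as a block, where it no longer passed (adjusted p = 0.112), and 0.64 within cluster B.

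**Figure D2:**
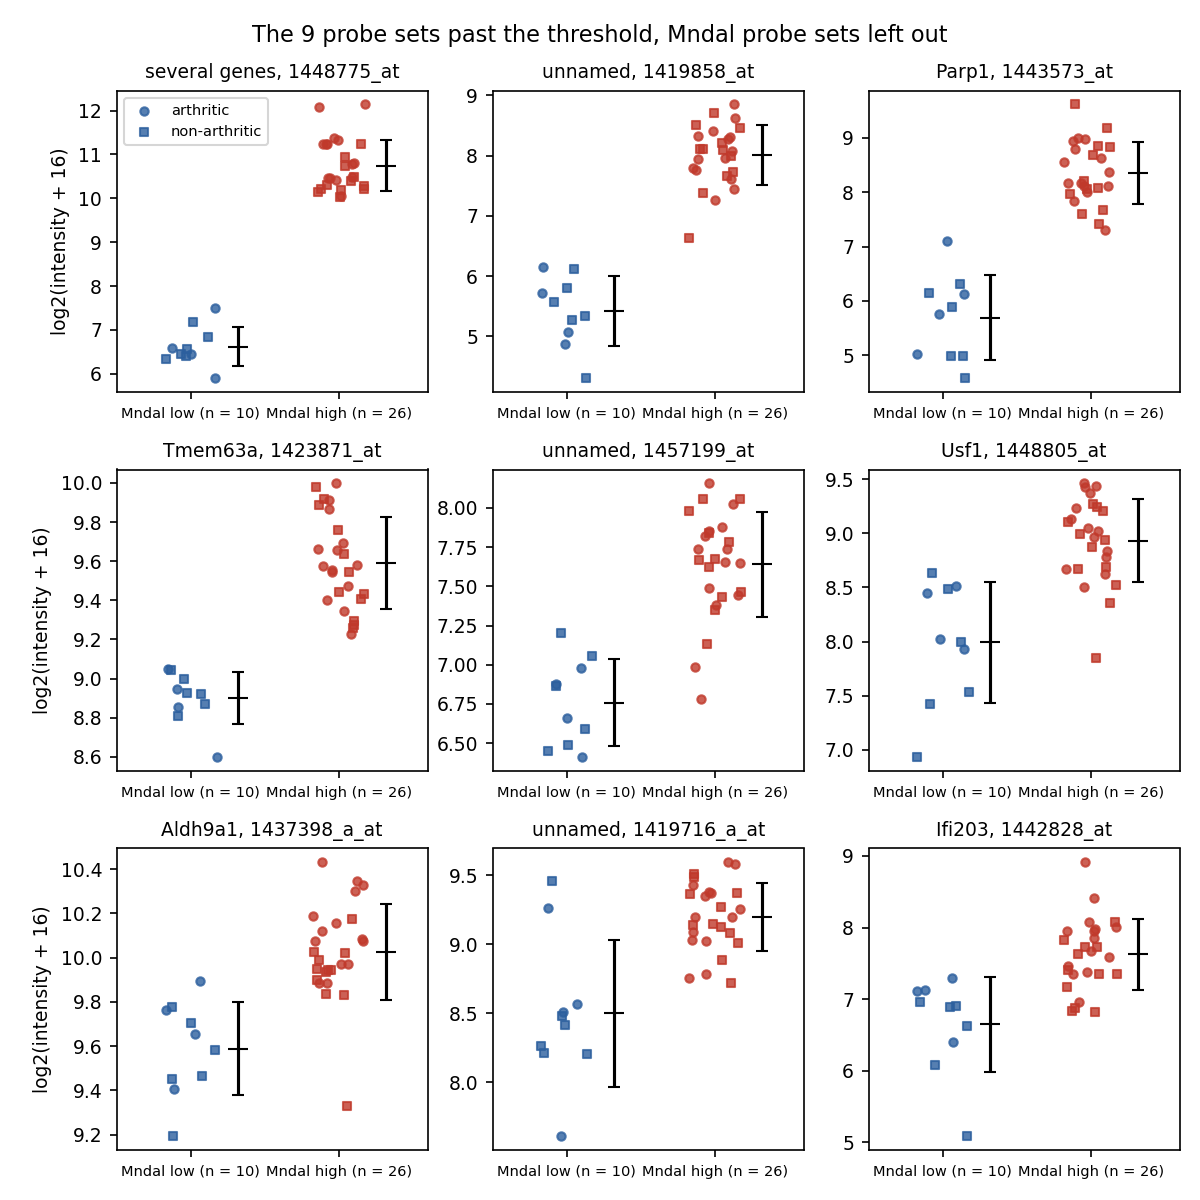
Log2(intensity + 16) of the 9 called probe sets on every array, low class (n = 10, blue) beside high class (n = 26, red), circles arthritic and squares non-arthritic, bars mean ± SD. The vertical axes differ between panels. Classes are apart on 1448775_at, 1419858_at, Parp1 and Tmem63a and overlap on the other 5.

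With the spike-in cluster as a block, 9 of 27019 probe sets were again called (0.0333%), 7 higher and 2 lower in high spleens, and 7 of the 9 were shared with the fit without the block. The 2 that came in were both lower in high spleens and both on chromosome 1. Lyplal1, a lysophospholipase-like serine hydrolase 12.2 Mb from Mndal, ran from 7.70 to 8.43 in low spleens (median 8.09) and from 6.67 to 8.29 in high spleens (median 7.43). It differed by -0.82 with the block (limma adjusted p = 0.00173) and by -0.60 without it (adjusted p = 0.137). Hsd11b1, an enzyme that regenerates active glucocorticoid inside cells and was chosen after its values were seen, lies 19.4 Mb away and differed by -0.49 with the block (adjusted p = 0.00803) and by -0.27 without it (adjusted p = 0.572). Both genes overlapped between the classes. On other chromosomes the block fit by limma also called 0, with 878 at an unadjusted p under 0.05.

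Distance from Mndal was then set against the share of probe sets with an unadjusted p under 0.05, which counts small differences too. That share was 18.7% of 134 tested probe sets under 5 Mb and 18.8% of 314 at 5 to 20 Mb. It was 11.97% of 234 at 20 to 50 Mb, 7.94% of 743 on the rest of chromosome 1 and 7.83% of 21455 on other chromosomes. The share near Mndal was thus above that of the other chromosomes, and the share beyond 50 Mb was close to it. These shares are a description of neighbouring features, which are not independent, and were not tested against each other. Direction was mixed near Mndal: of 84 probe sets with an unadjusted p under 0.05 within 20 Mb, 39 were higher and 45 lower in high spleens. On other chromosomes 1047 of 1680 were higher and 633 lower.

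**Figure D3:**
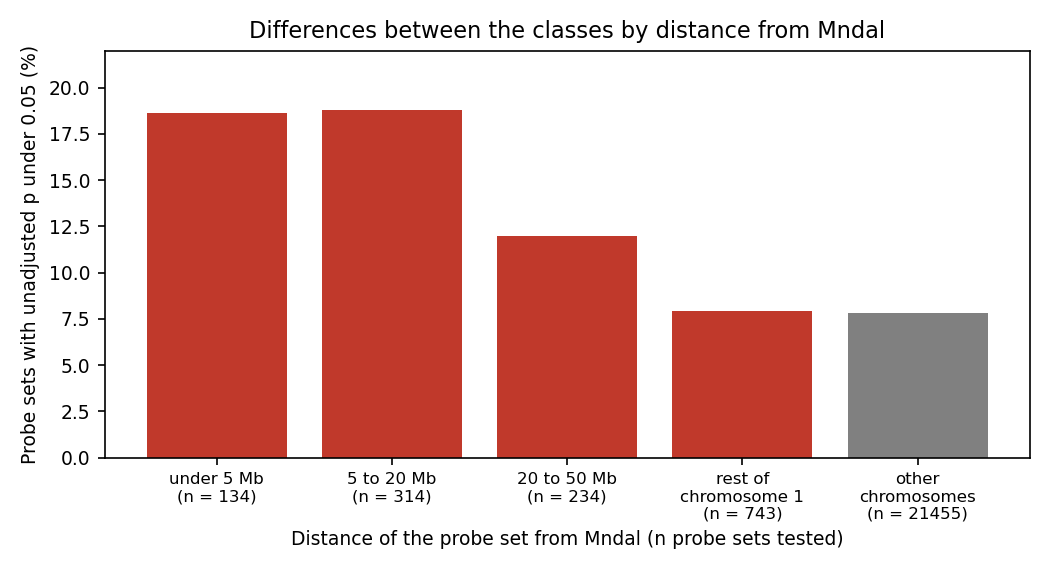
Share of tested probe sets with an unadjusted limma p under 0.05 between the Mndal classes, by distance from Mndal on chromosome 1 (red) and on other chromosomes (grey). The bars stand at 18.7% and 18.8% within 20 Mb and fall to 7.94% on the rest of chromosome 1, near the 7.83% of other chromosomes.

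Genes ordered by Pearson correlation with Mndal over the 36 arrays gave Tmem63a, Usf1, Ifi203, Nvl and Hs1bp3 at the top and Lyplal1, Cnih4 and H3f3a at the bottom. The arrays form 2 separate classes, so the order mostly restates the class difference, and no coefficient is given. Nvl, a nuclear ATPase of ribosome assembly 7.25 Mb from Mndal, ran from 8.12 to 8.53 in low and from 8.27 to 9.15 in high spleens and differed by 0.37 (limma adjusted p = 0.0753). Cnih4, of a family that exports receptors from the endoplasmic reticulum, differed by -0.24 (adjusted p = 0.179) at 7.29 Mb, and a probe set of the replacement histone gene H3f3a by -0.68 (adjusted p = 0.115) at 6.94 Mb. Hs1bp3 lies on chromosome 12, encodes a protein that binds the leukocyte adaptor HCLS1, and differed by 0.51 (adjusted p = 0.0734). Its low spleens ran from 6.88 to 8.01 and its high spleens from 7.51 to 8.61, with overlap, and it was the only one of these 8 genes off chromosome 1.

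**Figure D4:**
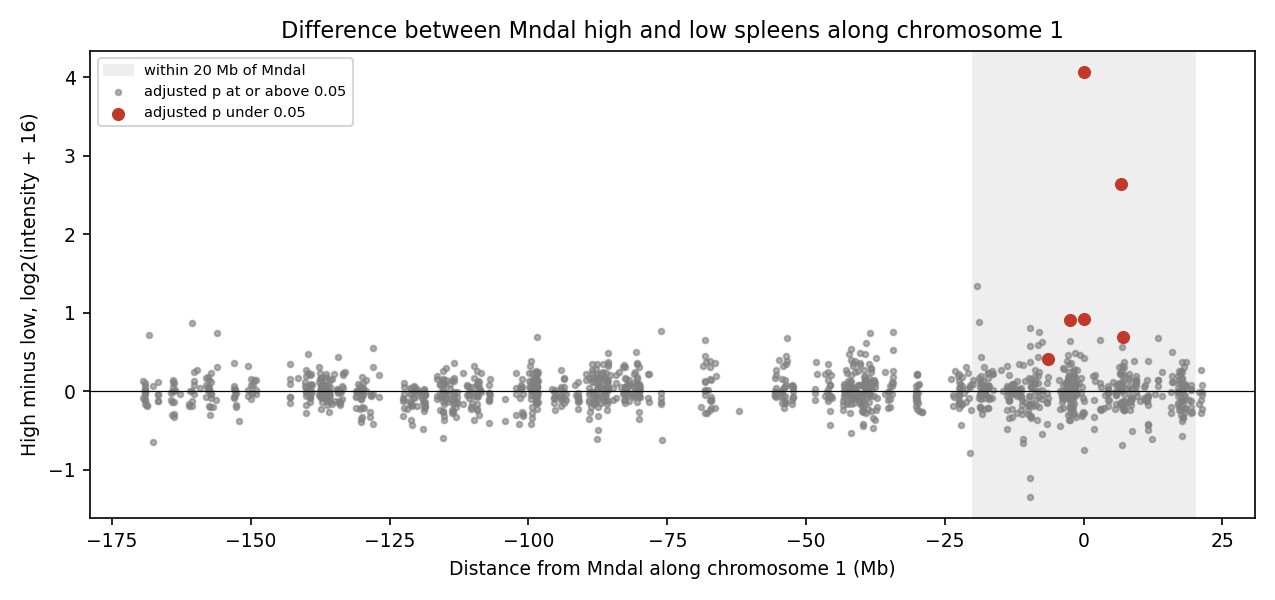
High minus low difference in log2(intensity + 16) of each tested probe set on chromosome 1, against its distance from Mndal in Mb (red, adjusted p under 0.05; grey band, within 20 Mb). The 6 called probe sets lie within the band and above 0, the highest at 4.07 and 2.64, and differences below 0 in the band did not pass.

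The same contrast was made within each label group, in arrays that are not shared. In arthritic spleens (14 high, 4 low) limma called 5 probe sets (0.0185%), and in non-arthritic spleens (12 high, 6 low) 8 (0.0296%). Called in both were 1448775_at, 1419858_at, Parp1 1443573_at and Tmem63a. Of these, 1419858_at and Parp1 1443573_at entered the test through the high class. All 9 probe sets called over the 36 arrays had the same sign in both groups. They were chosen over these same arrays, so this agreement of sign is not a separate test. The rest of the 9 passed in neither group alone. Tmem63a differed by 0.75 in arthritic (limma adjusted p = 0.0439) and by 0.64 in non-arthritic spleens (adjusted p = 0.0406). Usf1 differed by 0.81 and 0.98 and Ifi203 by 0.84 and 0.97 in arthritic and non-arthritic spleens, without passing in either.

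No remaining call within a label group had a gene on chromosome 1. Ccr2, a chemokine receptor of monocytes, differed by 1.13 in arthritic spleens (limma adjusted p = 0.0490) and by -0.37 in non-arthritic ones on 1460067_at. Dnase1l3, a secreted nuclease made by macrophages and dendritic cells, differed on 1421056_at by 2.31 in non-arthritic (limma adjusted p = 0.00181) and by -0.57 in arthritic spleens. Med13l, a subunit of the Mediator complex, differed on 1453906_at by 0.89 in non-arthritic (limma adjusted p = 0.0228) and by -0.09 in arthritic spleens. Also called in the non-arthritic group were 2 unnamed probe sets. The difference between the label groups, tested as an interaction, did not pass for any of these, with adjusted p from 0.172 to 0.741. All were named after their values were seen, and the probe sets of Ccr2, Dnase1l3 and Med13l are not the brightest of their genes. The interaction passed for 1 probe set of 27019 (0.0037%), that of Tmem97, a sterol-regulated protein of the endoplasmic reticulum, with 1692 at an unadjusted p under 0.05.

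Gene lists for pathways and cell types were described by their counts and medians. Beside the Ifi200 list, 0 of 22 lists had a member called by limma. Of all 12426 tested genes, 6481 (52.2%) had a difference above 0, and 992 had an unadjusted p under 0.05. Spleen markers were well measured in both classes: the mean level of 13 B cell genes lay between 11.39 and 12.20 in high and between 11.59 and 12.38 in low spleens, and that of 10 red cell precursor genes between 11.68 and 13.06 and between 11.09 and 12.78. In whole spleen, fewer cells of a type and less RNA per cell cannot be told apart. The interferon response list, which holds textbook interferon-induced genes, had a median difference of 0.00 with 12 of 23 genes above 0. Of these 23, 0 had an unadjusted p under 0.05. The median was -0.08 with the cluster as a block and -0.15 within cluster B. The smallest p of the list belonged to Ifi35, at -0.13 (adjusted p = 0.718), and Irf7, the interferon regulatory factor, differed by 0.22 (adjusted p = 0.774). With the cluster as a block these were 0.05 and -0.10, both with the sign turned.

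Genes of the inflammasome and of interleukin 1 signalling had a median difference of 0.10 over 16 genes, or 0.04 with the cluster as a block. Il18 was at 0.30, or 0.05 with the block. The inflammasome sensor Nlrp3 was at 0.37, or 0.27 with the block, and at 0.14 without non-arthritic replicate 14, whose level was far below the other low spleens. Irak1, a kinase downstream of interleukin 1 receptors, differed by -0.65 (adjusted p = 0.572) and by -0.01 with the cluster as a block. Il1rn, which encodes the receptor antagonist, ran from 4.84 to 6.97 in low and from 5.51 to 7.62 in high spleens. It differed by 0.35 (limma adjusted p = 0.651), or by 0.04 with the block. Its signal was near the filter limit of 6.49, with class means of 6.25 in low and 6.60 in high spleens. The arthritis term of the same limma fit did not pass for it either (adjusted p = 0.880). The distal chromosome 1 families were also without a call: the 9 SLAM receptor genes had a median of -0.04, and the 6 Fc receptor genes one of 0.23, which was 0.05 with the block.

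Red pulp macrophage genes, which serve the clearing of old red cells and the recycling of iron, were above 0 in 10 of 10 cases, with a median difference of 0.30 and 6 at an unadjusted p under 0.05. Vcam1 differed by 0.25 (adjusted p = 0.357), the iron exporter gene Slc40a1 by 0.30 and the haem oxygenase gene Hmox1 by 0.53, and none passed. With the block these 3 differed by 0.16, 0.15 and 0.21. With the spike-in cluster as a block the median was 0.09, and within cluster B it was 0.22. The mean level of the list overlapped widely, from 10.53 to 12.22 in low and from 11.09 to 12.39 in high spleens. This direction was not particular to red pulp macrophage genes. Marginal zone macrophage genes were above 0 in 4 of 4 cases, with a median of 0.37, or 0.25 with the block and 0.35 within cluster B. Monocyte genes were above 0 in 8 of 9 cases, with a median of 0.17, or -0.08 with the block. T cell genes pointed the other way, with 1 of 13 above 0 and a median of -0.15 that was -0.04 with the block. The T cell receptor chain genes Cd3d and Cd3g differed by -0.37 and -0.35 (adjusted p = 0.523 and 0.538), or by -0.20 and -0.17 with the block. The part of the spike-in cluster in these shifts was not tested beyond the block values.

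Mast cell, basophil and eosinophil genes had a median of 0.31 over 8 genes, with 6 above 0 and the lowest at -0.31. That median was 0.23 with the block and 0.10 within cluster B. Cpa3, a mast cell protease gene, had the largest difference of the list, 0.64 (limma adjusted p = 0.507). Pancreas acinar genes, which mark tissue other than spleen, had a median of 0.92 over 4 tested genes, or 0.36 with the block. Their mean level ran from 6.18 to 7.93 in low and from 5.90 to 13.54 in high spleens, and the 3 spleens known from earlier work on these data to carry pancreas transcripts, arthritic replicate 8 and non-arthritic replicates 5 and 6, were all in the high class. Without those 3 spleens limma called 9 probe sets, 8 of them shared: Ifi203 did not pass (0.85, adjusted p = 0.128) and Nvl did (0.42, adjusted p = 0.0144). Of 7 further genes that earlier work on these data found to split the mice in a similar way, 0 were called. Leaving out 1 array at a time moved H2-Ea between -0.35 (without arthritic replicate 11) and 0.21 (without non-arthritic replicate 7), and Gbp2b between 0.00 (without arthritic replicate 18) and 0.58 (without non-arthritic replicate 3), so no direction is read from either. Adamdec1 was at -0.94 (adjusted p = 0.661), and at -0.03 within cluster B.

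**Figure D5:**
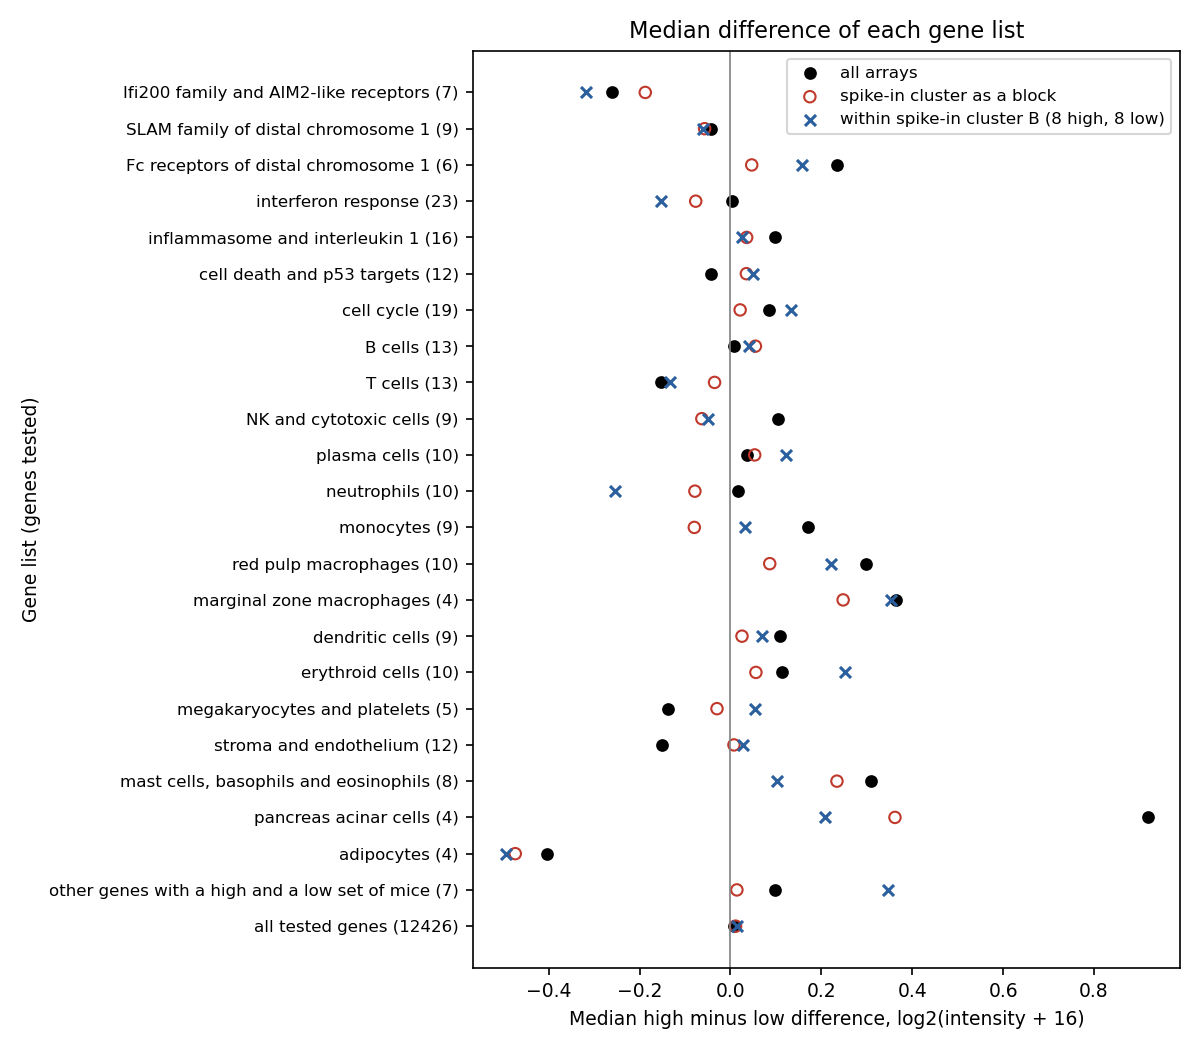
Median high minus low difference in log2(intensity + 16) over the tested genes of each list (number in brackets) over all arrays (black), with the spike-in cluster as a block (red rings) and within cluster B (blue crosses). The red pulp macrophage median moves from 0.30 to 0.09 with the block, and the median of all tested genes is 0.01.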

How the data were processed

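Spleen RNA was hybridised to Affymetrix mouse arrays, 1 per mouse. The authors' MAS5 software, named in the submitters' processing notes without a version, gave the deposited linear intensity per probe set. Values were used as log2(value + 16) without further normalization. Control probe sets (64) and probe sets below the 40th percentile of mean level were left out, which left 27022, and 27019 without the 3 of Mndal. No 2 arrays held identical values, and precision is limited by the number of arrays.

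Classes were compared with limma 3.58.1 under R 4.3.3 (linear models, moderated with a trend, two-sided, Benjamini-Hochberg over all tested probe sets). Names come from the annotation of the platform; 34741 of 34945 single-gene probe sets matched RefSeq (GRCm38.p6), used for names and distances. A gene stands for its brightest probe set, except where the text names a probe set that is not the brightest. Probe sets of several genes were given a distance only where all placed genes lay in 1 band, a rule set after the values were seen.

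The classes, lists and rules were chosen with earlier results of these data known. The spike-in clusters (Ward, log2 levels of 18 controls centred per array) were chosen among many definitions so that their sizes matched that earlier work. Other definitions gave other clusters, so the exact test of class against cluster holds for the chosen definition only. Named genes, apart from those said to be chosen after their values were seen, came from a wider set. Not every gene of that set is described. Past the threshold it held up to 12 within 20 Mb, 6 elsewhere on chromosome 1 and 12 on other chromosomes by size of difference. It also held all Ifi200 members, up to 3 per list by smallest p, Il1rn and 7 other genes that split the mice. Those most and least correlated with Mndal completed it.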

Additional observations from a re-analysis of the deposited data

Results flagged for a closer look

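In the low class of 10 spleens, 9 of 89 probe sets checked had 1 spleen far from the rest, and chance alone gives about 1 in 20. Arthritic replicate 6, the only low array of spike-in cluster A, stood apart on 5 of them. The spleen and its cluster cannot be told apart here. In that spleen Tmem63a was at 8.60 (8.81 to 9.05 in the others), Fcgr3 at 11.30 (9.61 to 10.50), Ifi35 at 11.97 (12.49 to 12.86), Xcr1 at 8.76 (6.26 to 7.59) and Mfap4 at 4.74 (7.61 to 9.30). Arthritic replicate 18 stood apart on 3: Epor was at 9.06 (9.99 to 11.04), Gp9 at 9.50 (10.41 to 11.39) and Pf4 at 12.72 (13.67 to 14.43). Nlrp3 was at 5.65 in non-arthritic replicate 14 (7.49 to 8.67).

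The high minus low difference of Tmem97 differed between the label groups by 1.19 (limma interaction, adjusted p = 0.0271), being 0.76 in arthritic and -0.43 in non-arthritic spleens, and passing in neither group alone. It was chosen after its values were seen.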

How the results depend on the processing

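The 9 called probe sets kept their direction under every alternative run, and 1448775_at stayed past the threshold in all of them. Main counts were 9 in all, 6 within 20 Mb and 0 on other chromosomes. Without the variance trend, or with uncentred spike-in clusters as a block (added after seeing the data), 1 probe set on another chromosome was called, Hs1bp3. The Wilcoxon test called 4 in all and 3 within 20 Mb. Arthritic arrays alone gave 5, 3 and 1, and non-arthritic arrays alone 3 within 20 Mb and 2 on other chromosomes. Within cluster A, which like C has 1 low array assumed to vary as the high ones do, 1 was called, within 20 Mb. Within B 5 were called, and within C 3 in all, 1 within 20 Mb and 1 on other chromosomes. Quantile normalization gave 11 and 7, and without the filter Ifi203 did not pass (adjusted p = 0.0529).

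With the replicate number as a block limma called 555 (67 higher), 19 within 20 Mb and 295 on other chromosomes, and 8 of the 9 remained. Some genes given above as not passing did pass with this block. Among them were Ifi202b (-0.79, limma adjusted p = 0.0403), Cpa3 (1.10, adjusted p = 0.0299), Hs1bp3 (0.62, adjusted p = 0.00957) and H3f3a (-1.16, adjusted p = 8.44e-05). The numbers share no stated source: same-numbered arrays correlated from -0.23 to 0.47, 10 of 18 pairs over 0.1, with a median of 0.16 against -0.02 for different numbers, a hint of pairing in the data that the labels do not state, and 2 of 18 arthritic arrays matched their own number best. The labels state no pairing and not every pair was over 0.1, so this block was not used for the main results. Those correlations do not settle whether same-numbered arrays are paired, so the main counts depend on this choice. The cause of the larger counts with the block was not tested.

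Leaving out 1 array at a time gave 7 to 15 in all, 4 to 8 within 20 Mb and 0 to 3 on other chromosomes. The 15 and the 3 came without arthritic replicate 6, the only low array of cluster A. In each fit without arthritic replicates 12, 13, 15 or 17 or non-arthritic replicates 14, 15 or 16 there was 1 call on another chromosome. Ifi203 lost its call without arthritic replicate 11 or non-arthritic replicates 1, 2, 3, 5, 7 or 18, Aldh9a1 without arthritic 11 and 1419716_a_at without arthritic 15. The exact test of label against class was the same under both other class rules.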
